A study of Mus musculus with 33 samples.

Results

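Mammary tumors of the subgroup that the labels call subgroup_one, all from mice with floxed Trps1, were compared with tumors of Trps1 wild-type mice. Membership was read from the sample descriptions. Subgroup one was 4 tumors of 3 mice (17LCO103, 18LCO003 and tumors 1 and 2 of 18LCO025), and the comparison group was 3 tumors of 3 mice (18LCO046, 18LCO114 and 18LCO128). These are 7 of the 11 tumors and 7 of the 33 samples in the series, which profiled mammary cells, organoids and tumors by RNA sequencing. Subgroup one carried WAP-cre;Cdh1F/F;Trps1F/F and the comparison group WAP-cre;Cdh1F/F;Trps1+/+, so all 7 tumors share the Cre transgene and the homozygous floxed Cdh1 allele. The Wap promoter, a milk protein promoter, drives Cre in mammary epithelium, and other cells of a tumor keep their alleles. Ages and treatments are not part of the tumor labels.

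The sources used here do not say how the subgroups were drawn. If expression drew them, the differences reported here are no independent evidence that the subgroup is distinct. The number in a tumor's title was taken as its mouse. Tumors 1 and 2 of mouse 18LCO025 were averaged to 1 value, and tumor 3 of the same mouse belongs to subgroup_three. The other floxed tumors, 2 in subgroup_two and 2 in subgroup_three, are used only to show where subgroup one differs from them.

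TRPS1 is an atypical GATA-type zinc finger protein that represses transcription with histone deacetylase complexes and is abundant in luminal mammary epithelium. E-cadherin, the product of Cdh1, joins epithelial cells at adherens junctions, and its loss is a hallmark of lobular breast cancer. Epithelial tumor cells can switch toward a mesenchymal state under repressors of the Zeb, Snail and Twist families, which act through E-box motifs of epithelial genes.

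The 7 tumors held 18304633 to 24192323 reads. Pearson correlations between tumors over the tested genes, which share libraries and are given as a description, were 0.877 to 0.951 within subgroup one, 0.906 to 0.964 within the wild-type group and 0.776 to 0.884 between the groups. Wild-type tumor 18LCO046 lay closest to subgroup one, at 0.833 to 0.884, against 0.776 to 0.839 for 18LCO114 and 18LCO128. Tumors 1 and 2 of 18LCO025 correlated at 0.914 with each other and at 0.782 to 0.825 with tumor 3 of that mouse. Krt8, a keratin of simple epithelia, was abundant in all 7 tumors, at 13.68 to 14.66 in subgroup one and 12.66 to 13.52 in the wild-type tumors.

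Levels are log2(normalized count + 1), on which 1 unit is a doubling and differences of genes near 0 are understated. Tumors are listed in the order 17LCO103, 18LCO003, 18LCO025 tumors 1 and 2, then 18LCO046, 18LCO114 and 18LCO128. Differences are subgroup one minus wild-type on that scale, with 3 mice in each group, and a number in parentheses after a gene is its difference. Rose and fell mean an adjusted p under 0.05 from limma with Benjamini-Hochberg adjustment over 14791 genes. The fit was repeated with each of the 6 mice left out in turn. A gene held where it passed in all 6 repeats, and for other genes the mice without which the call was lost are named.

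Trps1, the floxed gene, was at 11.88, 9.90, 10.20 and 10.14 in subgroup one and 11.46, 12.94 and 12.64 in the wild-type tumors. Tumor 17LCO103 was above wild-type tumor 18LCO046, so the groups overlapped, and the other 3 subgroup one tumors were below all 3 wild-type tumors. The means were 10.65 ± 1.07 and 12.35 ± 0.78 (SD, n = 3 mice each), and the difference of -1.70 (SE 0.625) did not pass, with a limma adjusted p of 0.105 and an exact two-sided permutation p of 0.2. The smallest permutation p that 3 mice against 3 allow is 0.1. Without 17LCO103 the difference was -2.31, with an adjusted p of 0.0423. The authors' deposited table gives Trps1 a log2 fold change of -1.70 and an adjusted p of 0.0122. Counts over the whole gene (chr15:50654752-50890463) do not show which exons were deleted, and fewer cells of a type cannot be told apart from less RNA per cell in bulk tissue.

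Cdh1, floxed in both groups, was higher in subgroup one. It was at 12.75, 13.24, 13.74 and 13.06 in subgroup one and 10.64, 8.35 and 7.02 in the wild-type tumors, so every subgroup one tumor was above every wild-type tumor. The means were 13.13 ± 0.34 and 8.67 ± 1.83 (SD, n = 3 mice each), a difference of 4.46 (SE 0.873, limma adjusted p = 0.0204) with an exact two-sided permutation p of 0.1. Cdh1 lost its call without 17LCO103, 18LCO003, 18LCO025 or 18LCO114 (adjusted p = 0.0544 to 0.0752). The authors' deposited table gives Cdh1 (chr8:106603351-106670246) a log2 fold change of 3.82 and an adjusted p of 0.000122. The other floxed tumors were at 6.49 to 10.30. As for Trps1, counts over the whole gene do not show which Cdh1 exons were deleted, and E-cadherin protein was not measured here.

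**Figure D1:**
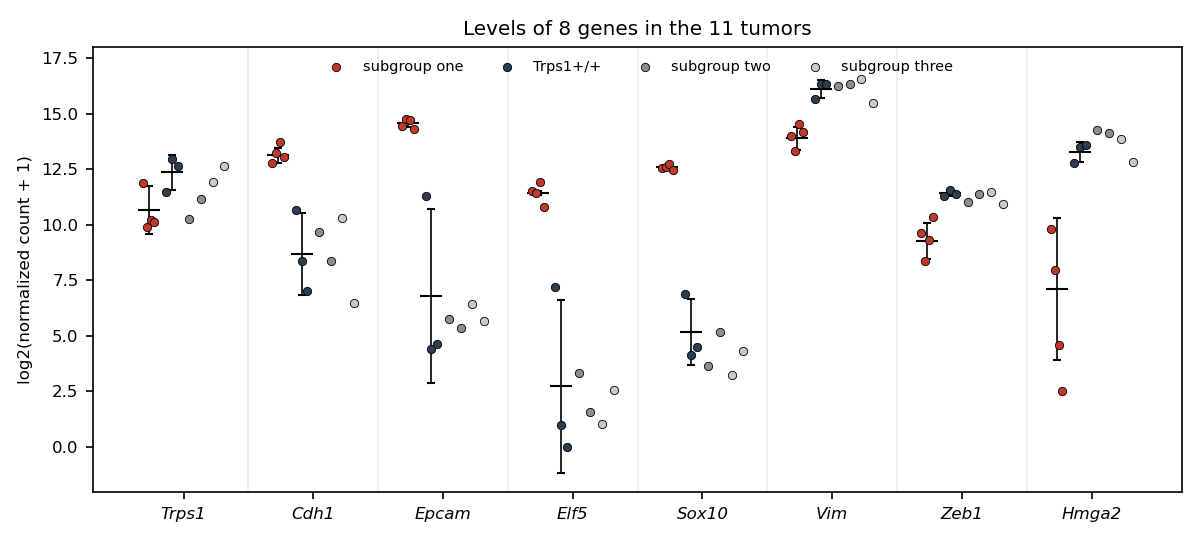
Level of 8 genes in each of the 11 tumors as log2(normalized count + 1); each point is 1 tumor, and bars are the mean and SD over the 3 mice of subgroup one and of Trps1+/+. Cdh1, Epcam, Elf5 and Sox10 are higher and Vim, Zeb1 and Hmga2 lower in all 4 subgroup one tumors than in the 3 Trps1+/+ tumors, and Trps1 overlaps.

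Of 14791 genes, 1621 (11%) rose and 1435 (9.7%) fell, and 5456 had an unadjusted p under 0.05. The large differences were mostly increases: 518 genes rose and 95 fell by at least 8-fold, and 1152 rose and 819 fell by at least 2-fold. Mice of the groups did not overlap, with a difference of at least 2-fold, for 1522 higher (10.3%) and 1299 lower genes (8.78%). The authors' deposited table gives 2230 higher and 1928 lower genes at an adjusted p under 0.05. It has an adjusted p for 16367 genes, so the counts are over unlike sets of genes. The count of 3056 called genes was 1113 without 18LCO114, 1354 without 18LCO128, 1634 without 17LCO103, 1828 without 18LCO003, 1878 without 18LCO025 and 2649 without 18LCO046.

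**Figure D2:**
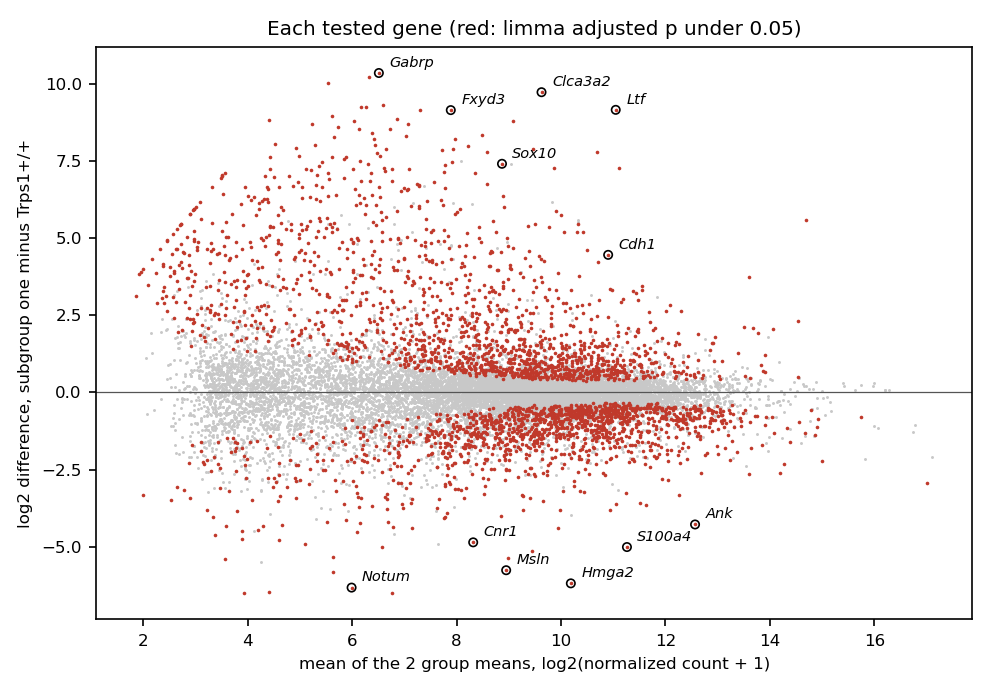
Each point is 1 of the 14791 tested genes, with the mean of both group means on the x axis and the difference, subgroup one minus Trps1+/+, on the y axis, both in log2 units; red marks an adjusted p under 0.05. Gabrp, Clca3a2, Ltf and Fxyd3 lie above 9 and Notum, Hmga2, Msln and S100a4 below -5.

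Genes listed for luminal epithelium, the inner layer that makes milk and senses hormones, were higher as a group. The list also holds genes of epithelia in general, such as Epcam, Rab25 and Ovol1. Of 26 luminal genes 21 rose, with a median difference of 5.78, where 11% of all genes rose and the median of all genes was 0.002. The count that rose was 5 without 18LCO114, 7 without 17LCO103 or 18LCO003, 8 without 18LCO025 and 10 without 18LCO128, and 24 without 18LCO046. Summed normalized counts of the list were 108800 to 176600 in subgroup one and 11800 to 40870 in the wild-type tumors.

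Elf5, the Ets factor of milk-secreting alveolar cells, was at 11.52, 11.41, 11.90 and 10.79 in subgroup one and 7.19, 0.98 and 0.00 in the wild-type tumors. Rab25, a GTPase of epithelial recycling endosomes, was at 10.41, 10.69, 10.98 and 10.27 against 6.53, 0.00 and 0.00. Epcam, an epithelial surface adhesion molecule, was at 14.45, 14.76, 14.72 and 14.31 against 11.31, 4.42 and 4.64. In these 3 genes the subgroup one tumors were close to each other, and 18LCO046 lay between them and the other wild-type tumors. The claudins Cldn7 (11.40 to 11.95 against 8.18, 1.56 and 1.66) and Cldn4 (11.57 to 13.22 against 9.55, 3.42 and 1.06), which seal tight junctions, had the same order.

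Promoter windows are shown for the 4 luminal genes with the largest increases among those that have a window in the RefSeq promoter table (GRCm38.p6). Each window runs 5′ to 3′ on the gene's strand from 250 bases before to 50 bases after the annotated start and is 300 bases long. Capitals mark CAGGTG or its reverse complement CACCTG, the E-box form that Zeb and Snail repressors bind.
Elf5, chr2:103411848-103412147, plus strand: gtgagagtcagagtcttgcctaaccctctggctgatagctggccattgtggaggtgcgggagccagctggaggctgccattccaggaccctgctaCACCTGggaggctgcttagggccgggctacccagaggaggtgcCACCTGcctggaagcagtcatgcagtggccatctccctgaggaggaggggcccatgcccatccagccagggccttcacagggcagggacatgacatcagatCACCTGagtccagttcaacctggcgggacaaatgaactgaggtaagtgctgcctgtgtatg
Rab25, chr3:88548230-88548529, minus strand: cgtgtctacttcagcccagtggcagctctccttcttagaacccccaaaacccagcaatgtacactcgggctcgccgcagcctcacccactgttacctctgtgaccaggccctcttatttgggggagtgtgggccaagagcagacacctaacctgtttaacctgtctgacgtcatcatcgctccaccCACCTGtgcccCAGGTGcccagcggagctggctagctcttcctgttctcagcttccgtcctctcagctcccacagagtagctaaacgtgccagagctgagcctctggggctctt
Cldn7, chr11:69965171-69965470, plus strand: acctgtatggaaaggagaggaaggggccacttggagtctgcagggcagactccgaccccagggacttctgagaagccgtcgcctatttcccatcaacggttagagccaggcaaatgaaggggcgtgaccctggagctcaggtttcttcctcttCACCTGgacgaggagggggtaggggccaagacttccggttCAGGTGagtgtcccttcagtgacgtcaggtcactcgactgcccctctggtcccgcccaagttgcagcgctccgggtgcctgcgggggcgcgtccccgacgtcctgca
Cldn4, chr5:134946885-134947184, minus strand: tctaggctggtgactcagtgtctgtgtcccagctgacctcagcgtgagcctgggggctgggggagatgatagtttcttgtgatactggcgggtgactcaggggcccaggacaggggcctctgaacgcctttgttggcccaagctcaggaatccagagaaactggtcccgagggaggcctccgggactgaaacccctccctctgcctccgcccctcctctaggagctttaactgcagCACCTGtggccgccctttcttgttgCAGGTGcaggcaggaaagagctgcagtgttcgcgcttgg
The Elf5 window has 3 matches and the windows of Rab25, Cldn7 and Cldn4 have 2 each. Of all 32851 windows in the table, 6640 (20.2%) hold at least 1 match on either strand. A second annotated start of Elf5 has 1 match and another start of Cldn7 has 0, so the count depends on the start. For both genes the window shown is the one with more matches. The motif AGATAA, bound by GATA factors, was searched on both strands and is in none of these windows, while 11.2% of all windows hold it. A share over the luminal list is void, since only 19 of its 26 members (73.1%, under the 80% required) have a window. A match describes the sequence and is neither a shown binding site nor a cause.

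Among luminal genes, Ehf, an epithelial Ets factor, rose by 8.81 (SE 1.37, adjusted p = 0.0112) and Spint1, an inhibitor of membrane serine proteases, by 6.63 (SE 0.824, adjusted p = 0.00646). Ovol1 (5.39), a factor that holds cells epithelial, Tjp3 (4.88), a tight junction scaffold, and Muc1 (3.33), an apical mucin, rose as well. Elf5 rose by 8.70 (SE 1.83, adjusted p = 0.0247), Rab25 by 8.40, Cldn7 by 7.86, Cldn4 by 7.80 and Epcam by 7.79 (SE 1.83, adjusted p = 0.0329). Elf5, Rab25, Cldn7, Cldn4 and Epcam lost their calls without any 1 mouse other than 18LCO046 (adjusted p = 0.0668 to 0.14). Krt18 lost its call without 17LCO103, 18LCO003, 18LCO025 or 18LCO114 (adjusted p = 0.0791 to 0.107). Ehf, Spint1, Ovol1, Tjp3 and Muc1 held. Krt18, the partner keratin of Krt8, rose by 1.93 (adjusted p = 0.0413), and Krt8 had a difference of 0.79 that did not pass (adjusted p = 0.0851). Gata3, the GATA factor of luminal identity, was at 9.69, 9.44, 9.27 and 8.98 against 8.28, 10.11 and 9.82, a difference of 0.01 (adjusted p = 0.987).

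**Figure D3:**
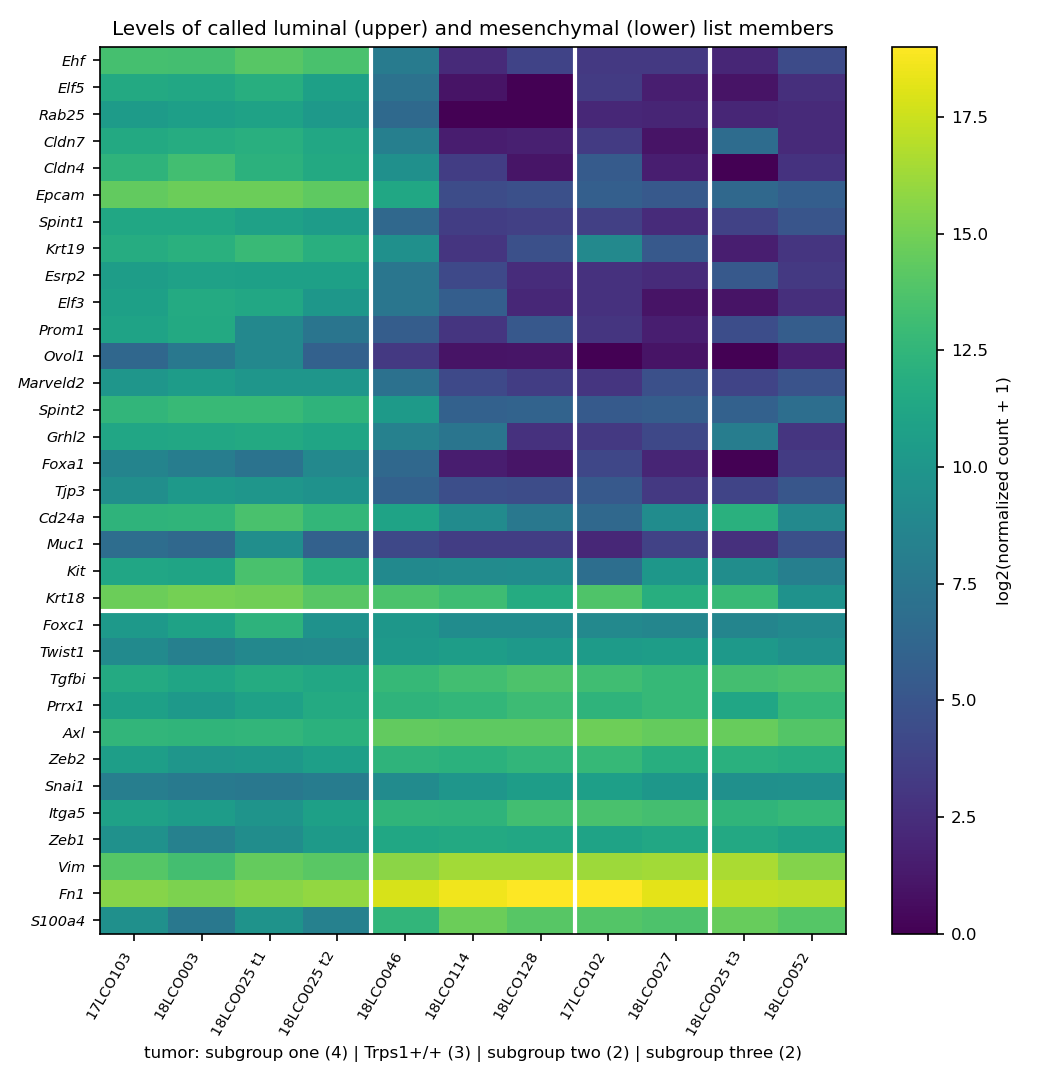
Level of the called luminal (upper block) and mesenchymal (lower block) genes in each of the 11 tumors, as log2(normalized count + 1) by color. In the upper block the 4 subgroup one columns are high, 18LCO046 is mostly intermediate and the other columns are mostly low, and in the lower block all genes but Foxc1 are lower in subgroup one than in Trps1+/+.

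The genes with the largest increases included channels and carriers of epithelia. Gabrp, a GABA receptor subunit (chr11:33550781-33578959), was at 11.36, 12.27, 11.95 and 10.93 against 4.01, 0.00 and 0.00 and rose by 10.35 (SE 1.13, adjusted p = 0.00491). Clca3a2, a calcium-activated chloride channel regulator (chr3:144796559-144819494), was at 14.56, 14.55, 14.06 and 14.69 against 7.72, 3.66 and 2.91 and rose by 9.73 (SE 1.21, adjusted p = 0.00648). Wild-type tumor 18LCO046 was again the highest of its group for both genes, and no subgroup one tumor was near it. Other genes that rose have related roles. Trpv6 (9.24) is an epithelial calcium channel, Slc5a8 (8.86) a monocarboxylate carrier and Atp10b (9.32) a lipid-transporting ATPase. Fxyd3 (9.15), a sodium pump regulator, and Atp6v1b1 (9.15), a proton pump subunit, rose too. Alox12e (10.23) is a lipoxygenase and Map3k21 (9.26) a kinase, and Prr15l (8.96) rose by a similar amount. Fxyd3 lost its call without 18LCO128 (adjusted p = 0.0534). Atp6v1b1 lost its call without any 1 mouse other than 18LCO046 (adjusted p = 0.0575 to 0.0689). Gabrp, Clca3a2, Trpv6, Slc5a8, Atp10b, Alox12e, Map3k21, Prr15l and Snorc held.

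Snorc, a small proteoglycan first known from cartilage (chr1:87470271-87475482), had 7010 reads in subgroup one and 2 in the wild-type tumors. The ratio of normalized levels was 2633, with a 95% counting interval of 729 to 21750. Aldoc, a glycolytic aldolase, was at 12.83, 12.79, 13.42 and 12.55 against 7.24, 7.35 and 6.80 and rose by 5.74 (SE 0.169, adjusted p = 0.000501), with little spread in either group. Clu, the secreted chaperone clusterin, was at 17.07, 18.05, 17.52 and 17.09 against 13.16, 10.82 and 11.69 and rose by 5.59 (adjusted p = 0.00499). Scara3, the scavenger receptor gene next to Clu, rose by 2.65 (adjusted p = 0.0353). Scara3 lost its call without any 1 mouse other than 18LCO128 (adjusted p = 0.0617 to 0.115). Aldoc and Clu held.

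Of 20 basal and myoepithelial genes, of the contractile outer layer, 3 rose, where 11% of all genes rose. Their median was 1.48, and the count was 9 without 18LCO046. Sox10, a factor of mammary progenitors and of neural crest, was at 12.53, 12.58, 12.75 and 12.48 against 6.86, 4.13 and 4.51 and rose by 7.41 (SE 0.701, adjusted p = 0.00397). The 4 subgroup one tumors were nearly equal for Sox10 and far above the wild-type tumors. Krt17 (6.86), a keratin of basal and stressed epithelium, and Lmod1 (4.92), an actin nucleator of smooth muscle, rose as well. Krt14, the main basal keratin, was at 12.35, 13.13, 14.62 and 13.19 against 11.95, 6.28 and 4.36 and did not pass (adjusted p = 0.0839). Krt5, its partner, was at 8.29, 5.11, 13.82 and 7.50 against 8.06, 1.56 and 2.91, with overlapping groups. Sox10, Krt17 and Lmod1 held.

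Squamous genes were extreme in tumor 1 of 18LCO025. Krt10, a keratin of cornifying epidermis, was at 5.87, 5.33, 16.07 and 5.64 against 5.41, 5.31 and 5.40, and Krt1, its partner, at 0.00, 1.95, 15.45 and 0.00 against 0.00, 0.00 and 0.00. Only tumor 1 of 18LCO025 was high for these keratins, and tumor 2 of the same mouse was not. The summed squamous count was 152600 in that tumor, 2656 to 3160 in the other 3 and 292 to 1388 in the wild-type tumors, with Sprr3 at 0 in all 7. Of 22 listed genes 9 passed the filter on low values, so counts cover only those. Of the 9, 3 rose, where 11% of all genes rose. The count was 2 with tumor 2 in place of the mouse mean and 5 without 18LCO046. Krt6a, a keratin of activated epidermis, was at 7.12, 5.15, 11.96 and 1.53 against 1.47, 0.98 and 0.00. Its pooled 4238 reads against 3 gave a ratio of 1061 (95% counting interval 363 to 5148), but tumor 1 of 18LCO025 held 4065 of them and the ratio without it was 57.6. Dsg3, a desmosomal cadherin, was at 9.08, 6.90, 9.46 and 2.25 against 0.92, 0.98 and 0.00. It had 1372 pooled reads against 2 (ratio 515, interval 142 to 4260), and a ratio of 328 without tumor 1 of 18LCO025. Tumor 2 of 18LCO025 held only 4 of these reads. Tgm1 (1.87), which cross-links the cornified envelope, rose as well. Tgm1 lost its call without 18LCO003, 18LCO025, 18LCO114 or 18LCO128 (adjusted p = 0.0787 to 0.123). Krt6a and Dsg3 held.

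Milk genes differed widely among the tumors of a group. Csn2, beta-casein, was at 13.14, 1.54, 9.37 and 11.50 against 9.14, 0.00 and 0.00, and Csn1s1, an alpha-casein, at 12.66, 3.40, 2.30 and 11.65 against 10.23, 0.00 and 0.00. Both were high in 17LCO103, in tumor 2 of 18LCO025 and in wild-type tumor 18LCO046 and low in 18LCO003, and tumor 1 of 18LCO025 had Csn2 but little Csn1s1. The groups overlapped and neither gene passed (adjusted p = 0.35 and 0.423). Of 11 milk genes 2 rose, where 11% of all genes rose, and their median was 4.27. The count was 1 without 18LCO003, 18LCO025, 18LCO114 or 18LCO128 and 5 without 18LCO046. Ltf, the iron-binding lactoferrin, was at 14.21, 17.52, 17.36 and 12.94 against 9.96, 3.54 and 5.90 and rose by 9.16 (SE 1.71, adjusted p = 0.018). Mfge8, a milk fat globule protein, was at 14.82, 14.61, 14.75 and 14.63 against 13.10, 12.19 and 12.60 and rose by 2.08 (SE 0.245, adjusted p = 0.00583). Prolactin acts through its receptor and Stat5. Of 10 genes of that pathway 3 rose, against 11% of all genes: Elf5 and the feedback inhibitors Cish (2.17) and Socs2 (1.74). Prlr, the prolactin receptor, was at 10.79, 8.72, 10.01 and 9.51 against 8.91, 3.66 and 2.68 and did not pass (adjusted p = 0.0946). Ltf and Cish lost their calls without 18LCO003, 18LCO025, 18LCO114 or 18LCO128 (adjusted p = 0.0501 to 0.0659). Socs2 lost its call without any 1 mouse other than 18LCO046 (adjusted p = 0.0583 to 0.107). Mfge8 held.

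Hormone-sensing genes included a single call. Of 10, only Foxa1, a pioneer factor for steroid receptors, rose (5.20, adjusted p = 0.0495), where 11% of all genes rose. Esr1, the estrogen receptor, was at 8.37, 8.92, 9.05 and 8.50 against 8.50, 7.58 and 8.12, with overlapping groups. Pgr, the progesterone receptor, was at 7.11, 9.36, 8.08 and 8.50 against 6.40, 0.98 and 1.06, which did not overlap but did not pass (adjusted p = 0.0565). Other members went the other way. At 2-fold or more, groups did not overlap for 2 higher and 3 lower genes of the 10, against 10.3% and 8.78% of all genes. Areg (-2.26) and Ly6a (-1.74) were among the lower ones and did not pass (adjusted p = 0.058 and 0.068). Foxa1 lost its call without any 1 mouse other than 18LCO046 (adjusted p = 0.108 to 0.146).

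Of 13 classical cadherins and catenins 3 rose and 1 fell, where 11% of all genes rose and 9.7% fell. Ctnnd1, the p120 catenin that keeps cadherins at the membrane, was at 11.19, 11.45, 11.47 and 11.26 against 10.38, 10.08 and 10.18 and rose by 1.12 (SE 0.127, adjusted p = 0.00533). Ctnna2, an alpha-catenin of neurons, had 538 reads against 0 and was at least 135-fold higher, with 3 reads over the wild-type group as the floor. Without tumor 1 of 18LCO025, which held 301 of these reads, it was at least 78.9-fold higher. Cdh5, the cadherin of endothelium, fell by 1.72. Cdh2, N-cadherin, was at 8.69, 7.51, 5.33 and 6.77 against 6.96, 10.71 and 10.45, with overlapping groups (adjusted p = 0.274). Ctnna2 lost its call without 18LCO025, 18LCO114 or 18LCO128 (adjusted p = 0.0515 to 0.0595). Ctnnd1 and Cdh5 held.

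Mesenchymal genes were lower in subgroup one. Of 20, 11 fell and 1 rose, with a median of -1.83, where 9.7% of all genes fell, and with each mouse left out 9 to 12 fell. Vim, the intermediate filament vimentin, was at 14.01, 13.33, 14.52 and 14.15 against 15.66, 16.33 and 16.35 and fell by 2.23 (SE 0.339, adjusted p = 0.0107). Zeb2, a repressor of epithelial genes, was at 10.68, 9.98, 10.15 and 10.76 against 12.37, 12.10 and 12.49 and fell by 1.95 (SE 0.207, adjusted p = 0.00463). Its paralog Zeb1 was at 9.63, 8.34, 9.30 and 10.34 against 11.29, 11.54 and 11.40 and fell by 2.15 (adjusted p = 0.0167). Both groups were tight for Zeb2, while 18LCO003 was the lowest tumor for Zeb1. The E-box repressors Snai1 (-2.02) and Twist1 (-1.60) fell too. Axl, a receptor kinase, fell by 1.94 (SE 0.115, adjusted p = 0.00173). S100a4, a calcium-binding protein of motile cells (chr3:90603771-90606045), was at 9.56, 7.64, 9.78 and 8.37 against 12.53, 14.74 and 14.04 and fell by 5.01 (SE 0.708, adjusted p = 0.00868). Itga5 (-2.11), a fibronectin receptor subunit, and Tgfbi (-1.80), a matrix protein induced by TGF-beta, fell as well. Foxc1, a forkhead factor on the same list, rose (1.20, adjusted p = 0.0441). Zeb1 lost its call without 18LCO114 or 18LCO128 (adjusted p = 0.056 to 0.0655). Snai1 lost its call without 18LCO003, 18LCO025 or 18LCO114 (adjusted p = 0.0503 to 0.0653). Foxc1 lost its call without 18LCO003, 18LCO025, 18LCO114 or 18LCO128 (adjusted p = 0.112 to 0.137). Vim, Zeb2, Twist1, Axl, S100a4, Itga5 and Tgfbi held.

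Matrix genes were mostly lower, with calls in the basement membrane and few among fibrillar collagens and their partners. Fn1, fibronectin, was at 15.58, 15.29, 15.59 and 15.91 against 17.85, 18.62 and 18.95 and fell by 2.93 (SE 0.407, adjusted p = 0.00826). Of 26 fibrillar matrix genes 2 fell, Fn1 and Tnc (-1.39), and 1 rose, Thbs1 (2.04), a matricellular protein. Among all genes, 9.7% fell and 11% rose. Col1a1, the main fibrillar collagen chain, was at 16.50, 14.93, 17.04 and 17.67 against 18.29, 17.41 and 16.24, with overlapping groups and an adjusted p of 0.384. Of 15 basement membrane genes 8 fell and 1 rose, against 9.7% and 11% of all genes, with a median of -0.75. The count that fell was 1 without 18LCO114, 2 without 18LCO128, 4 without 18LCO003 or 18LCO046 and 5 without 18LCO025. Among those that fell, Lamb1 (-1.73) is a laminin chain, Nid1 (-2.18) joins laminin to collagen, and Hspg2 (-1.82) encodes perlecan. Col4a5, a collagen chain of specialized basement membranes, rose (2.19). Tnc lost its call without 17LCO103, 18LCO003, 18LCO025 or 18LCO128 (adjusted p = 0.0878 to 0.1). Thbs1 lost its call without 18LCO003, 18LCO025, 18LCO114 or 18LCO128 (adjusted p = 0.0547 to 0.0861). Nid1 and Hspg2 lost their calls without 18LCO114 or 18LCO128 (adjusted p = 0.0561 to 0.0626). Col4a5 lost its call without 18LCO003, 18LCO025 or 18LCO128 (adjusted p = 0.053 to 0.0564). Fn1 and Lamb1 held.

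Of 16 matrix proteases and inhibitors 2 rose and 3 fell, where 11% of all genes rose and 9.7% fell. The count that fell was 1 without 17LCO103, 18LCO025, 18LCO114 or 18LCO128. Mmp15, a membrane-bound protease, was at 11.81, 12.13, 13.16 and 12.31 against 8.87, 8.44 and 8.04 and rose by 3.77 (SE 0.306, adjusted p = 0.00268). Mmp7, a protease made by epithelium, had 143 reads against 0 and was at least 35.8-fold higher by the same floor. The protease inhibitor Timp1 was at 11.28, 10.62, 10.65 and 10.84 against 12.49, 12.54 and 13.63 and fell (adjusted p = 0.0155), as did Timp2 (-1.70). Timp1 lost its call without 18LCO025 (adjusted p = 0.0508). Timp2 lost its call without 17LCO103, 18LCO046, 18LCO114 or 18LCO128 (adjusted p = 0.0503 to 0.0848). Mmp15 and Mmp7 held.

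Of 29 tested actin cytoskeleton and adhesion genes 27 had a negative difference. Of the 29, 14 fell and 1 rose, against 9.7% and 11% of all genes, with a median of -0.64. The count that fell was 7 without 18LCO114 or 18LCO128, 8 without 17LCO103 and 9 without 18LCO025. It was 7 in a fit of all 4 tumor groups. Cfl1, the actin-severing cofilin, was at 13.26, 13.05, 13.22 and 13.05 against 14.02, 14.14 and 14.15 and fell by 0.95 (SE 0.124, adjusted p = 0.00711). Actn1 (-0.99), an actin cross-linker, and Limk1 (-1.59), the kinase that inactivates cofilin, fell, and Actn4 (0.89), a paralog of Actn1, rose. Actb, beta-actin, fell by 0.81 (adjusted p = 0.0464). Actn4 lost its call without 17LCO103 or 18LCO128 (adjusted p = 0.052 to 0.0545). Actb lost its call without each of the 6 mice in turn (adjusted p = 0.0593 to 0.126). Cfl1, Actn1 and Limk1 held.

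The largest decreases among abundant genes were spread over several functions. Notum, an enzyme that inactivates Wnt ligands (chr11:120653788-120661175), was at 4.35, 0.97, 4.78 and 1.53 against 8.59, 10.24 and 8.63 and fell by 6.33 (SE 0.944, adjusted p = 0.0101). Hmga2, a chromatin architecture protein of embryonic and tumor cells (chr10:120361275-120476469), was at 9.79, 7.95, 4.56 and 2.51 against 12.77, 13.48 and 13.60 and fell by 6.19 (SE 1.52, adjusted p = 0.037). Subgroup one tumors were all below the wild-type tumors for Hmga2 but differed widely among themselves. Cnr1, a cannabinoid receptor (chr4:33924593-33948831), was at 5.94, 6.35, 5.93 and 4.82 against 11.03, 10.72 and 10.50 and fell by 4.86 (SE 0.293, adjusted p = 0.00173). Other genes fell too. Msln (-5.76) encodes mesothelin, Crabp2 (-5.37) a retinoic acid carrier and Pcdh19 (-5.14) a protocadherin. Pcolce2 (-4.40) aids collagen maturation, Sema3a (-4.39) is a guidance cue and Fcna (-4.36) a ficolin. Ank (-4.28) exports pyrophosphate, and Atp6v0d2 (-4.07) is a proton pump subunit. Hmga2 lost its call without 18LCO003, 18LCO046, 18LCO114 or 18LCO128 (adjusted p = 0.0669 to 0.112). Msln lost its call without any 1 mouse other than 17LCO103 (adjusted p = 0.0744 to 0.142). Crabp2 lost its call without 18LCO114 (adjusted p = 0.0562). Pcolce2 lost its call without 17LCO103, 18LCO046, 18LCO114 or 18LCO128 (adjusted p = 0.0962 to 0.149). Sema3a lost its call without 17LCO103, 18LCO003, 18LCO114 or 18LCO128 (adjusted p = 0.0837 to 0.0933). Fcna lost its call without 18LCO025, 18LCO114 or 18LCO128 (adjusted p = 0.0544 to 0.0663). Ank lost its call without 18LCO003, 18LCO025, 18LCO114 or 18LCO128 (adjusted p = 0.0649 to 0.0815). Notum, Cnr1, Pcdh19 and Atp6v0d2 held.

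**Figure D4:**
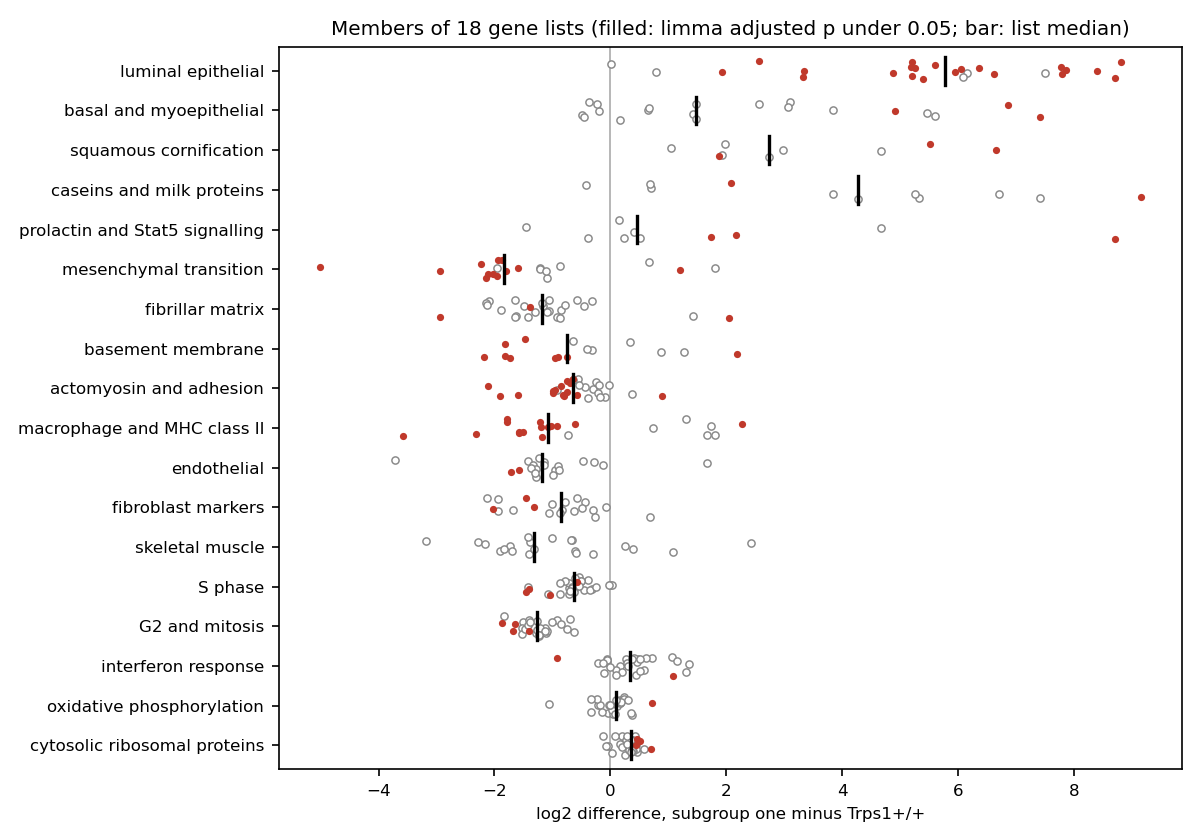
Difference of each tested member of 18 gene lists, subgroup one minus Trps1+/+ in log2 units; filled points have an adjusted p under 0.05, open points do not, and bars are list medians. The luminal median is 5.78, the mesenchymal median -1.83 and the ribosomal median 0.37.

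Macrophage genes were lower in subgroup one. Of 21, 14 fell and 1 rose, against 9.7% and 11% of all genes, with a median of -1.08. The count that fell was 8 without 18LCO114 and 5 in a fit of all 4 tumor groups. Mrc1, the mannose receptor, was at 10.47, 8.48, 9.87 and 10.58 against 13.05, 13.00 and 13.88 and fell by 3.59 (SE 0.563, adjusted p = 0.0114). The growth factor receptor Csf1r (-1.51), the F4/80 antigen Adgre1 (-1.79) and the chemokine receptor Cx3cr1 (-1.58) fell. Cd14, a lipopolysaccharide co-receptor, rose (2.28). Summed macrophage counts were 107600 to 171800 in subgroup one and 162500 to 209500 in the wild-type tumors, which overlapped. Cd14 lost its call without 17LCO103, 18LCO046, 18LCO114 or 18LCO128 (adjusted p = 0.0561 to 0.0928). Mrc1, Csf1r, Adgre1 and Cx3cr1 held.

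Markers of other cells were measured beside these results, and their part in them was not tested. For the counts below, 11% of all genes rose and 9.7% fell. Of 20 endothelial genes 2 fell, Cdh5 and Tie1 (-1.57), and 11 had groups that did not overlap at 2-fold or more (8.78% of all genes), the count that fell being 1 without 18LCO025, 18LCO046, 18LCO114 or 18LCO128 and 7 without 17LCO103, with summed counts of 8329 to 18090 against 23300 to 31550. Of 20 fibroblast genes 3 fell, Pdgfra (-2.02), Pdgfrb (-1.45) and Fbln2 (-1.32), with sums of 58900 to 296600 against 182300 to 471900. Skeletal muscle genes had sums of 646 to 213700 against 2735 to 64620, and limma called 0 of 21, with 0 at an unadjusted p under 0.05. T and NK cell genes had sums of 519 to 1723 against 890 to 2016, and limma called 0 of 22, with 0 at an unadjusted p under 0.05. Of 17 adipocyte genes 2 rose, Cidea (8.28), a lipid droplet protein, and Pnpla2 (1.10), a lipase, while the defining adipokine Adipoq was at 0.97 to 9.39 against 5.90 to 8.09 and the sums were 4856 to 31580 against 7174 to 15270. Of 10 nerve and Schwann cell genes 3 rose, Sox10, Mbp (2.74) and Cnp (3.01). The sums, which include Sox10 (also on the basal list), were 12970 to 29070 against 3183 to 4572. Of 7 neutrophil genes 1 rose, Lcn2 (7.29), an iron-sequestering lipocalin, and 5 had a negative difference, with a list median of -0.75. S100a8 was at 6.35 to 7.21 against 7.29 to 7.75. The neutrophil sums, which include Lcn2, were 8919 to 53500 against 1122 to 2424. Of 12 B and plasma cell genes 1 rose, the secretory factor Xbp1, and the count was 0 without 17LCO103, 18LCO003, 18LCO025, 18LCO114 or 18LCO128, with sums of 5925 to 9247 against 3981 to 6676. Tie1 lost its call without 18LCO025, 18LCO046, 18LCO114 or 18LCO128 (adjusted p = 0.083 to 0.112). Pdgfra and Pnpla2 lost their calls without 18LCO114 (adjusted p = 0.0508 to 0.0551). Pdgfrb lost its call without each of the 6 mice in turn (adjusted p = 0.0605 to 0.0872). Fbln2 lost its call without 18LCO128 (adjusted p = 0.0546). Mbp lost its call without any 1 mouse other than 18LCO046 (adjusted p = 0.052 to 0.13). Cidea, Cnp and Lcn2 held.

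**Figure D5:**
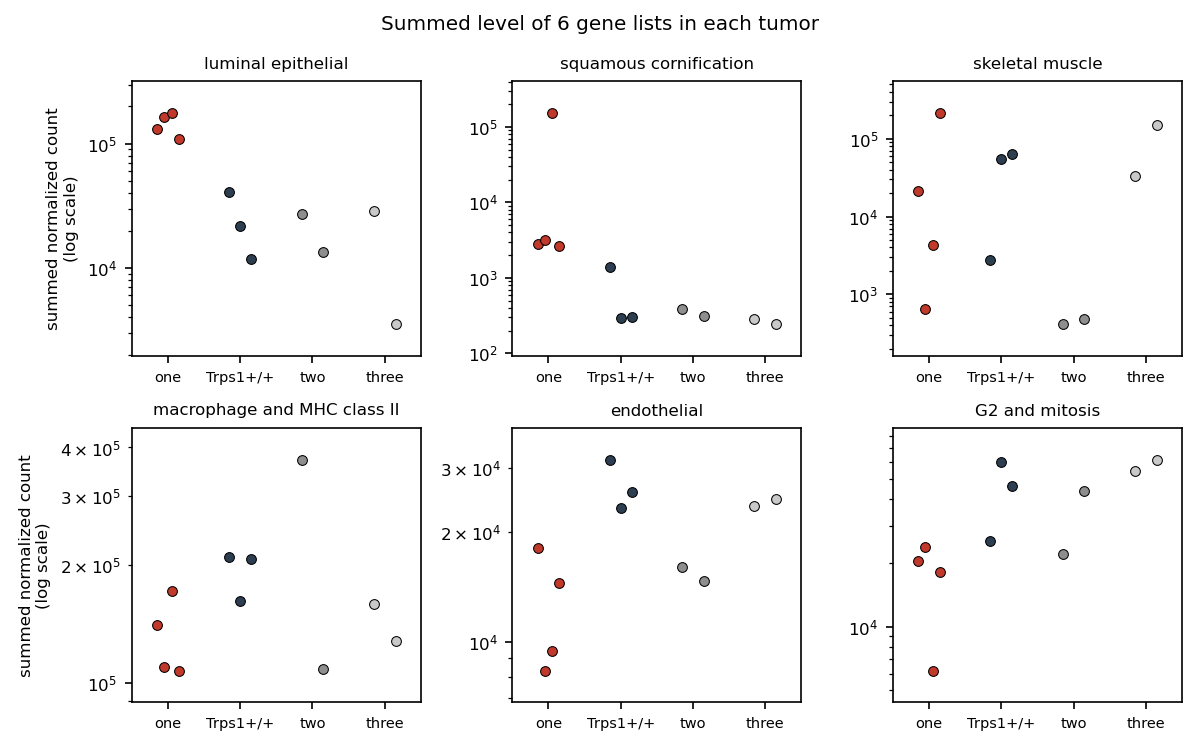
Summed normalized count of 6 gene lists in each of the 11 tumors, on log axes, by group. Luminal sums are 108800 to 176600 in subgroup one and 11800 to 40870 in Trps1+/+, the squamous sum is 152600 in 1 tumor, and skeletal muscle sums of the groups overlap.

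Genes of cell division were lower without many calls. All 29 tested genes of G2 and mitosis had a negative difference at the deposited scaling, with a median of -1.27. Of these, 4 fell and 17 had groups that did not overlap at 2-fold or more, against 9.7% and 8.78% of all genes. The count that fell was 0 without 17LCO103, 18LCO025, 18LCO114 or 18LCO128, 1 without 18LCO003 and 13 without 18LCO046. Mki67, a protein of cycling cells, was at 11.28, 11.51, 9.35 and 11.19 against 11.53, 12.29 and 11.98 and did not pass (adjusted p = 0.127). Tumor 1 of 18LCO025, the squamous tumor, was the lowest. Foxm1 (-1.64), a mitotic transcription factor, Kif2c (-1.87), a spindle kinesin, Cdc20 (-1.68), an activator of anaphase, and Prc1 (-1.40), a midzone protein, fell. Of 30 S phase genes 4 fell, among them Rrm2 (-1.41), a ribonucleotide reductase subunit, and E2f1 (-1.04), a factor for replication genes. The S phase count was 0 without 18LCO114 or 18LCO128, 1 without 18LCO003 or 18LCO025 and 13 without 18LCO046. Ccnd1, cyclin D1, fell by 1.58 together with its kinase Cdk6 (-0.75) and the inhibitors Cdkn2c (-2.05) and Cdkn2d (-1.13). Foxm1, Kif2c, Cdc20, Prc1, Cdkn2c and Cdkn2d lost their calls without any 1 mouse other than 18LCO046 (adjusted p = 0.0552 to 0.143). Rrm2 lost its call without 18LCO003, 18LCO025, 18LCO114 or 18LCO128 (adjusted p = 0.0562 to 0.0882). E2f1 lost its call without 18LCO114 or 18LCO128 (adjusted p = 0.0733 to 0.079). Ccnd1 lost its call without any 1 mouse other than 18LCO025 (adjusted p = 0.0522 to 0.121). Cdk6 lost its call without any 1 mouse other than 18LCO003 (adjusted p = 0.0642 to 0.139).

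Id genes, inhibitors of helix-loop-helix factors downstream of BMP signals, changed in both directions. Id4, a gene of mammary progenitors, was at 10.34, 11.42, 10.77 and 10.34 against 6.04, 4.91 and 5.90 and rose by 5.16 (SE 0.416, adjusted p = 0.00268). Id2 (1.47) rose and Id3 (-2.15) fell, and of 23 TGF-beta and BMP genes 2 rose and 3 fell, where 11% of all genes rose and 9.7% fell. Among 23 Wnt genes 4 rose and 2 fell. The count that rose was 2 without 17LCO103, 18LCO114 or 18LCO128. Rnf43 (4.25), a ligase that removes Wnt receptors, the ligand Wnt5b (3.96) and the nuclear factor Tcf7 (1.51) rose, and the ligand Wnt5a (-1.85) fell with Notum. Id3 lost its call without 18LCO114 or 18LCO128 (adjusted p = 0.0619 to 0.0707). Tcf7 lost its call without 17LCO103, 18LCO114 or 18LCO128 (adjusted p = 0.0641 to 0.0743). Wnt5a lost its call without 17LCO103, 18LCO003, 18LCO046 or 18LCO114 (adjusted p = 0.0553 to 0.0952). Id4, Id2, Rnf43 and Wnt5b held.

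ErbB receptors transmit EGF family signals, and of 17 genes 2 rose and 1 fell, where 11% of all genes rose and 9.7% fell. Erbb2 was at 11.57, 11.94, 11.99 and 11.50 against 10.42, 9.81 and 9.83 and rose by 1.73 (SE 0.202, adjusted p = 0.00571). Its partner Erbb3 rose (5.21) and the ligand Ereg fell (-3.16). Of 16 Notch genes 4 rose, among them the receptors Notch1 (0.96) and Notch3 (1.51) and the ligand Dll1 (4.42), and Notch4 (-1.82), a receptor of endothelium, fell. The Notch count that rose was 0 without 18LCO114, 1 without 18LCO128 and 2 without 17LCO103. F3, tissue factor, was at 11.80, 12.38, 11.44 and 11.06 against 7.78, 7.01 and 7.86 and rose by 4.26 (SE 0.355, adjusted p = 0.00275). Igfbp5 (3.76), a binding protein for insulin-like growth factors, and Insr (0.69), the insulin receptor, were the 2 of 14 genes of that family that rose, and Fgf2 (-2.10), a fibroblast growth factor, the 1 of 19 FGF genes that fell. Erbb3 lost its call without any 1 mouse other than 18LCO046 (adjusted p = 0.0563 to 0.0932). Ereg and Fgf2 lost their calls without 17LCO103, 18LCO025, 18LCO114 or 18LCO128 (adjusted p = 0.056 to 0.127). Notch1 lost its call without 18LCO114 or 18LCO128 (adjusted p = 0.058 to 0.0654). Notch3 lost its call without 17LCO103, 18LCO114 or 18LCO128 (adjusted p = 0.0503 to 0.0667). Dll1 and Notch4 lost their calls without 18LCO114 (adjusted p = 0.0537 to 0.0592). Igfbp5 lost its call without 17LCO103, 18LCO025 or 18LCO114 (adjusted p = 0.0549 to 0.0697). Insr lost its call without any 1 mouse other than 18LCO025 (adjusted p = 0.0502 to 0.0863). Erbb2 and F3 held.

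Corepressor genes, whose products work with TRPS1, included called genes in both directions. Of 29, 4 rose and 2 fell, with a median of -0.08, where 11% and 9.7% of all genes rose and fell. The count that rose was 0 without 18LCO114 or 18LCO128 and 2 without 18LCO003 or 18LCO025. Hdac3, the deacetylase of the NCoR complex, was at 11.34, 11.83, 11.51 and 11.61 against 10.73, 10.75 and 10.73 and rose by 0.84 (SE 0.142, adjusted p = 0.0136), and Gps2 (0.68) of the same complex rose. In the NuRD complex Mta3 (0.60) rose, and Hdac1 (-0.82) and Mbd3 (-0.62) fell. Of 6 GATA family genes and partners only the cofactor Zfpm1 rose (0.85, adjusted p = 0.0495). Hdac3 and Gps2 lost their calls without 18LCO114 or 18LCO128 (adjusted p = 0.0503 to 0.0558). Mta3 lost its call without 18LCO003, 18LCO025, 18LCO114 or 18LCO128 (adjusted p = 0.0573 to 0.0912). Hdac1 and Zfpm1 lost their calls without any 1 mouse other than 18LCO046 (adjusted p = 0.0621 to 0.142). Mbd3 lost its call without 17LCO103, 18LCO003, 18LCO046 or 18LCO114 (adjusted p = 0.0583 to 0.0883).

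Inflammatory, immediate early and lipid genes followed in smaller numbers, where 11% of all genes rose and 9.7% fell. Of 21 cytokine genes 3 fell, Ptgs2 (-3.04), the inducible cyclooxygenase, and the monocyte chemokines Ccl2 (-1.81) and Ccl7 (-2.37), and 1 rose. Of 17 complement genes 4 fell, among them C1qa (-1.19) and Cfp (-2.35), which start the classical and stabilize the alternative pathway, and 2 rose. Of 18 AP-1 and immediate early genes 3 rose and 2 fell, Fosl1 (-3.15) among the latter, and the count that rose was 0 without 18LCO114 or 18LCO128 and 1 without 18LCO003 or 18LCO025. Fatty acid synthesis had 4 of 20 genes that rose: Srebf1 (1.29, SE 0.104), its main transcription factor, with Me1 (1.19), Acss2 (1.40) and Dgat1 (0.74). Ptgs2 and Ccl2 lost their calls without any 1 mouse other than 18LCO003 (adjusted p = 0.0512 to 0.0865). Fosl1 lost its call without 17LCO103, 18LCO114 or 18LCO128 (adjusted p = 0.0501 to 0.0577). Me1 lost its call without each of the 6 mice in turn (adjusted p = 0.0501 to 0.0893). Acss2 lost its call without 18LCO114 or 18LCO128 (adjusted p = 0.0511 to 0.0572). Dgat1 lost its call without any 1 mouse other than 18LCO046 (adjusted p = 0.0617 to 0.09). Ccl7, C1qa, Cfp and Srebf1 held.

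In the remaining lists, cholesterol synthesis had 2 genes that rose and 3 that fell of 23, while 2 of 27 glycolysis and hypoxia genes and 1 of 26 oxidative phosphorylation genes rose. In the interferon response 1 of 30 rose and 1 fell, 1 of 18 MHC class I genes fell, and 3 of 23 p53 targets and 2 of 25 unfolded protein response genes rose. Of 18 YAP and TAZ targets 1 rose and 2 fell, and 1 of 9 histone genes fell. Of 30 ribosomal protein genes 4 rose, with a median of 0.37. That count was 12 with quantile normalization, 1 with a common median, 0 in a fit of all 4 tumor groups and 0 without 18LCO114, 1 without 18LCO003, 18LCO025 or 18LCO046 and 2 without 17LCO103 or 18LCO128. In all genes the shares were 11% and 9.7%. Without at least 1 mouse each of the other counts in these lists was 0, except those of the YAP and TAZ targets, and no cholesterol synthesis gene rose with a common median.

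Subgroup one also differed from the other 4 floxed tumors in a limma fit of all tumors, averaged to 10 values by mouse and group. Mouse 18LCO025 gave values to both sides, and the fit has no mouse block. Of 15257 genes 1738 (11.4%) were higher and 1477 (9.68%) lower in subgroup one. The total of 3215 was 3929 in a fit of the 11 single tumors with the mouse as a random block, added after the data were seen, and 3056 without tumor 3 of 18LCO025. It was 1938 without 18LCO025, 1963 without 17LCO103 and 2039 without 18LCO003. This comparison uses the same subgroup one tumors as the comparison with wild-type tumors, so the values are given side by side. Sox10 was higher by 8.51 (adjusted p = 0.000342) and Ehf by 10.31 (adjusted p = 0.00112), against 7.41 and 8.81 over the wild-type tumors. Epcam was higher by 8.78 (adjusted p = 0.00505) and Cdh1 by 4.42 (adjusted p = 0.0188). S100a4 had a difference of -5.28 (adjusted p = 0.00093) and Hmga2 of -6.68 (adjusted p = 0.00744). Subgroup one was thus higher in the first 4 of these genes and lower in the other 2. Trps1 was at 10.24 to 12.63 in the other floxed tumors, a difference of -0.83 that did not pass (adjusted p = 0.312). Id4 differed by 2.50 (adjusted p = 0.0325) from the other floxed tumors, where it ranged from 5.32 to 10.21. Col4a1, a basement membrane collagen chain that fell against the wild-type tumors (-0.95), differed by 0.17 from the other floxed tumors and did not pass there (adjusted p = 0.719); the gap between both differences was not tested. Col4a1 lost its call without any 1 mouse other than 17LCO103 (adjusted p = 0.0629 to 0.0903).

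Mouse 18LCO025 held tumors of subgroup one and of subgroup_three. Elf5 was at 11.90 and 10.79 in its subgroup one tumors and 1.04 in tumor 3, and Sox10 at 12.75 and 12.48 against 3.23. Vim was at 14.52 and 14.15 against 16.55, and Zeb2 at 10.15 and 10.76 against 12.09. Tumor 3 was lower in both epithelial genes and higher in both mesenchymal genes than its 2 neighbors, and in these 4 genes near wild-type tumors 18LCO114 and 18LCO128. Not all epithelial genes had this pattern. Krt8 was at 13.92 in tumor 3 and 13.76 in tumor 2. Cldn7 was at 6.68 in tumor 3 against 1.56 and 1.67 in 18LCO114 and 18LCO128, and Cdh1 at 10.30 against 8.35 and 7.02. With 1 mouse of this kind there is no test.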

How the data were processed

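RNA of primary mouse mammary tumors was extracted with an AllPrep kit, and TruSeq libraries were made from RNA with an integrity number above 8, per the labels' protocols. TopHat, HTSeq and the build GRCm38 are named in the submitters' processing notes. Versions, annotation and strand setting are unknown here, so values of overlapping, antisense and near-identical genes are uncertain. The tumor table deposited by the authors holds log2(normalized count + 1). On the linear scale, all values came out as whole reads after division by a library factor (within 0.01 reads or a relative 1e-05). The authors' deposited comparison also holds a mean normalized signal, log2 fold changes, a test score and p-values, of which the fold changes and adjusted p-values are quoted.

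Symbols turned into dates (14) were left out. Tumors of 1 mouse in a group were averaged, and genes with a normalized count + 1 of at least 10 in at least 3 mice were kept. The test was limma 3.58.1 in R 4.3.3 with a trended variance prior and Benjamini-Hochberg adjustment. Its code was run on simulated counts with the same dispersion in all genes and both groups. That check does not show how the test performs on these tumors. A mouse block could not be estimated on the 10 mouse values used against the other floxed tumors, so that fit has none. Folds of genes with few reads use the recovered reads, a floor of 3 reads over the group and 95% exact binomial intervals, which cover counting error only; 3 reads equal 2.66 to 3.26 normalized counts. Gene coordinates are from GENCODE on GRCm38.

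Members, the 47 gene lists and the tests were chosen with earlier results of these data known. The rule named Trps1, Cdh1, the 12 higher and 12 lower called genes with the largest differences among abundant genes whose mice did not overlap, and from each list the first 2 genes and the 4 with the smallest p. Rab25, Cldn7, Cldn4, Epcam, Ehf, Gata3, Aldoc, Foxc1, Col4a5, Cd14, Actn4, Snai1 and Twist1 fall outside it and were chosen after their values were seen. Alternatives were other scalings, pseudocounts, filters, variance priors and samples.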

Additional observations from a re-analysis of the deposited data

Results flagged for a closer look

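In limma, 1738 (11.4%) of 15257 genes were higher and 1477 (9.68%) lower in subgroup one than in the other floxed tumors. Both sides have the same genotype, and mouse 18LCO025 gave values to both. Without that mouse the total was 1938. How the subgroups were drawn is not known here, so these counts are no independent evidence of a distinct subgroup.

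Of 172 genes looked at, 11 (6.4%) had 1 of the 4 subgroup one tumors far from the other 3, near the 5% that chance gives. That rate holds for independent tumors, but tumors 1 and 2 of 18LCO025 share a mouse. The genes below are therefore a description. In tumor 1 of 18LCO025 Krt10 (16.07), Krt17 (11.79) and Fxyd3 (13.13) were high and Mki67 (9.35), Top2a (9.81) and Kif2c (6.26) low. In 17LCO103 Trps1 (11.88) was high and Map3k21 (10.01) and Zfpm1 (9.04) low. Id3 (7.67) was low in 18LCO003 and Pfkfb3 (10.28) in tumor 2 of 18LCO025.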

How the results depend on the processing

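With each mouse left out in turn, called genes ran from 1113 to 2649, genes whose groups did not overlap from 2866 to 3436, and genes differing from the other floxed tumors from 1938 to 2961. The Cdh1 difference ran from 3.63 to 5.44 and the Trps1 difference from -2.31 to -1.33. Fewer mice enter these fits. Of 145 called genes looked at, 59 kept their call in all 6. The Gata3 log2 difference changed sign: -0.028 with tumors shifted to a common median, -0.060 with 4 separate tumors, -0.036 with tumor 2 of 18LCO025 alone, and -0.55 to 0.37 with a mouse left out; the cause was not tested. Other scalings, pseudocounts, filters and fits kept the total of called genes within 1.5 times, but not the counts of every list. In the fit of all 4 tumor groups, genes that fell went from 14 to 5 for macrophages, 14 to 7 for actin and adhesion, 8 to 5 for the basement membrane, 4 to 2 for S phase and 3 to 1 for fibroblasts, and genes that rose from 3 to 1 for p53 targets and for AP-1. The 4 ribosomal genes that rose became 12 with quantile normalization, 0 in that fit, and 1 each with a common median, no filter on low values, no variance trend or tumor 1 of 18LCO025 alone. The 4 genes of mitosis that fell became 2 with no filter, no variance trend or tumor 1 alone, 7 with 4 separate tumors and 9 with tumor 2 alone. Basement membrane genes that fell were 5 with tumor 1 or tumor 2 alone, and p53 targets that rose 1 with tumor 1 alone. The 4 cyclin and CDK inhibitor genes that fell were 1 with no variance trend. Basal genes that rose went from 3 to 5 with 4 separate tumors, and squamous genes from 3 to 1 with a count minimum of 100. List counts of 1 or 2 genes moved too. No paired analysis was possible because no mouse gave tumors to both groups and the tumor labels carry no replicate numbers; a mouse block could be fitted only on single tumors against the other floxed tumors, where 3929 genes differed. Depth limits genes with few wild-type reads.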
